A study of Mus musculus with 5 samples.

Results

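The genes described here are 10 genes that mark injured or incompletely repaired tubular epithelium in the kidney, found by gene name in the deposited tables: Havcr1, Lcn2, Spp1, Clu, Sox9, Sox4, Vcam1, Cd44, Cd24a and Prom1. All 10 were found among the 35478 genes listed, and all 10 were among the 16394 genes with enough counts to be tested. RNA-seq of kidney cortex was compared between 2 Prdm16fl/fl mice, numbered 1 and 3, and 3 Ksp-Cre/Prdm16fl/fl mice, numbered 1 to 3, with 1 library per mouse. The mice were males, 7 to 8 weeks old, of a strain labelled C57BL/6J;129 although the sample titles name C57BL/6J alone, and the controls were littermates. The groups are called control and Ksp-Cre mice from here on. Every mouse carried 2 floxed Prdm16 alleles with loxP sites around exon 9 and every mouse underwent unilateral ischemia-reperfusion injury (UIRI), so by their labels the groups differ only in Ksp-Cre. The left renal pedicle was clamped for 35 minutes on a bath at 38.5°C, the right kidney was removed on day 10, and the mice were killed 24 hours later, 11 days after clamping. Ksp-Cre expresses Cre recombinase from the promoter of Ksp-cadherin (Cdh16) in tubular epithelial cells, whereas the libraries hold RNA of every cell of the tissue. Libraries of uninjured kidneys and of mice with Ksp-Cre alone were not analysed here.

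After ischemia, surviving tubular cells lose transport functions, re-enter the cell cycle and replace lost neighbours. These cells transiently turn on a program that includes the phosphatidylserine receptor Havcr1 (KIM-1), the siderophore-binding protein Lcn2 (NGAL), the transcription factor Sox9 and the surface proteins Cd24a, Cd44 and Prom1 (CD133). Cells that redifferentiate switch the program off, whereas cells that fail to do so keep an altered state, with Vcam1 as a well known marker in the proximal tubule, and release signals that act on leukocytes and fibroblasts. The comparison asks how far this program differed between injured kidneys with and without Ksp-Cre on floxed Prdm16.

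Total counts per library were 14939040 to 16425161. Prdm16, the targeted gene, stood at 25.3 and 20.0 counts per 1000000 after TMM normalization (CPM) in control mice 1 and 3, and at 17.1, 17.0 and 18.0 CPM in Ksp-Cre mice 1, 2 and 3. The difference, -0.38 on the log2 scale (standard error 0.15), missed the threshold, with an adjusted p = 0.259 in edgeR's quasi-likelihood test. The count covers the whole gene in all cells and does not isolate exon 9. Ksp-Cre mouse 3 stood apart from the other libraries: its Pearson's r of log2 CPM across genes was 0.943 to 0.960 with each of them, beside 0.970 to 0.991 among the other 4, so values without it are given beside the results. It was singled out in these same data, so those values are not an independent test. At an adjusted p under 0.05 edgeR called 7.82% of genes as higher and 11% as lower without it, against 0.104% and 0.872% with all 5 libraries. Markers of the labelled tissue were present: the summed level of 10 proximal tubule markers was 4492 to 11654 CPM and that of 4 general tubule epithelial markers 1234 to 1529 CPM.

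With all 5 libraries no member passed the adjusted threshold of edgeR, although most lay higher in every Ksp-Cre kidney. For 8 of the 10 members, all but Vcam1 and Cd44, each of the 3 Ksp-Cre mice lay above both control mice, as did 20.3% of all genes tested. The median log2 fold change of the 10 members was 0.99, beside 0.038 over all genes tested. At an adjusted p under 0.05 over all 16394 genes, edgeR called 0 of the 10 members, whose adjusted p ran from 0.0633 to 0.946, and it called 0.104% of all genes as higher. At an unadjusted p under 0.05 the same 8 members were higher, beside 7.64% of all genes. DESeq2, which estimates the spread between mice in another way, called these 8 members at an adjusted p under 0.05, beside 1.86% of all genes as higher. The p-values set the group difference against the spread between mice within the groups. Both tools estimate that spread with information shared across genes. Without Ksp-Cre mouse 3, edgeR called 9 of the 10, all but Cd44, beside 7.82% of the genes tested in that fit. Without Ksp-Cre mouse 1 or 2, 0 members passed the adjusted threshold, but these fits called 0 of all genes. In both, 8 members had an unadjusted p under 0.05. Fits without a control mouse keep 1 control, and their calls are not counted here.

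**Figure D1:**
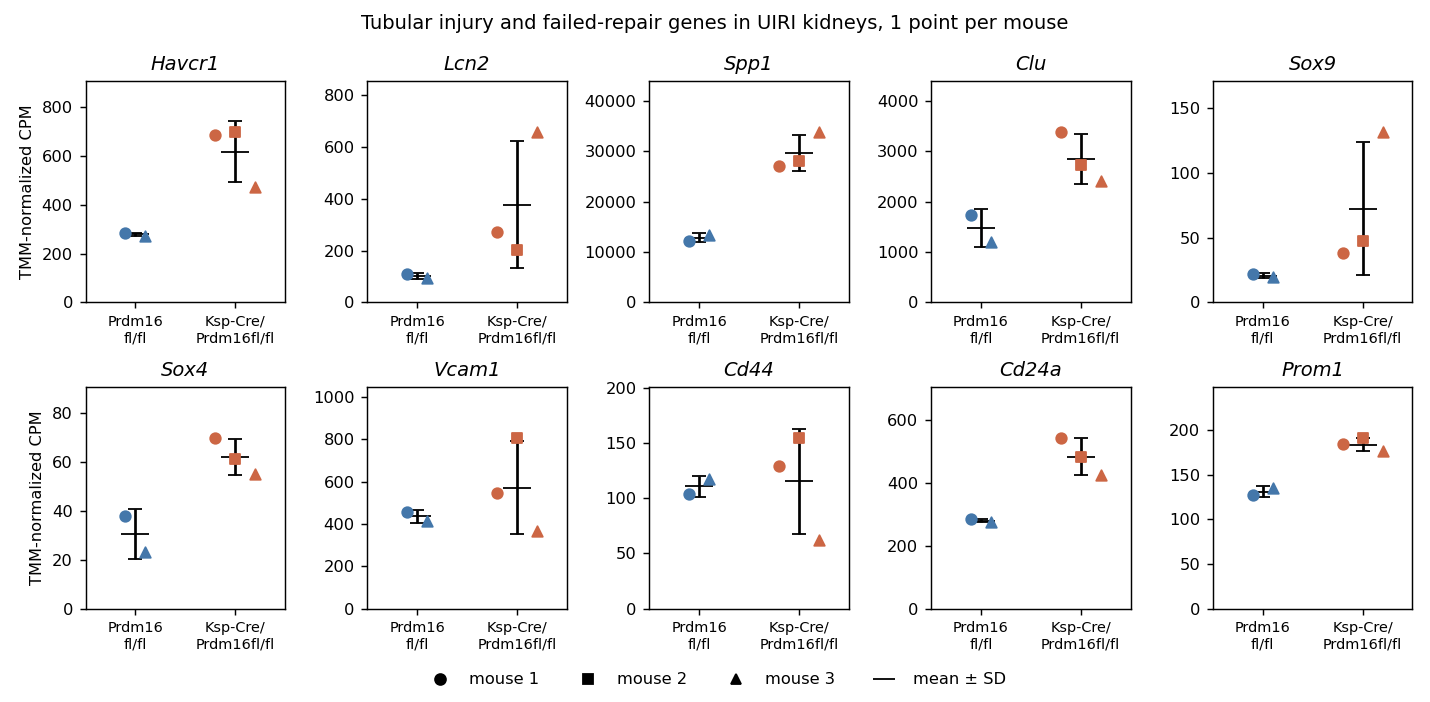
TMM-normalized CPM of the 10 genes, 1 panel per gene, with 1 point per mouse (the symbol gives the mouse number) and the mean ± SD of the 2 control and the 3 Ksp-Cre mice. In 8 panels the 3 Ksp-Cre points lie above both control points, as for 20.3% of all genes tested. In the panels of Vcam1 and Cd44 mouse 3 lies below both control points.

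Per unit of gene length, the 10 genes spanned more than 3 orders of magnitude. In TPM, the share of transcripts per gene scaled to 1000000, the order in control mice was Spp1 (16936 ± 82.6, SD, n = 2), Clu (1445 ± 466), Vcam1 (281 ± 38.4), Cd24a (277 ± 23.9), Lcn2 (262 ± 46.7), Havcr1 (242 ± 22.7), Cd44 (42.0 ± 0.601), Prom1 (32.1 ± 0.823), Sox4 (14.1 ± 5.64) and Sox9 (11.0 ± 1.83). Neighbours in this order overlapped among Vcam1, Cd24a, Lcn2 and Havcr1, and so did Sox4 and Sox9, whereas the lowest Cd24a value (260 TPM) lay just above the highest of Havcr1 (258 TPM). In Ksp-Cre mice the order of the means was Spp1 (45921 ± 2549, SD, n = 3), Clu (3290 ± 733), Lcn2 (1113 ± 642), Havcr1 (638 ± 165), Cd24a (567 ± 100), Vcam1 (440 ± 189), Prom1 (53.3 ± 5.27), Cd44 (52.7 ± 23.9), Sox9 (43.9 ± 27.9) and Sox4 (33.6 ± 5.76). In this group Spp1, Clu and Vcam1 did not overlap with the next gene in the order, and every other pair of neighbours did.

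**Figure D2:**
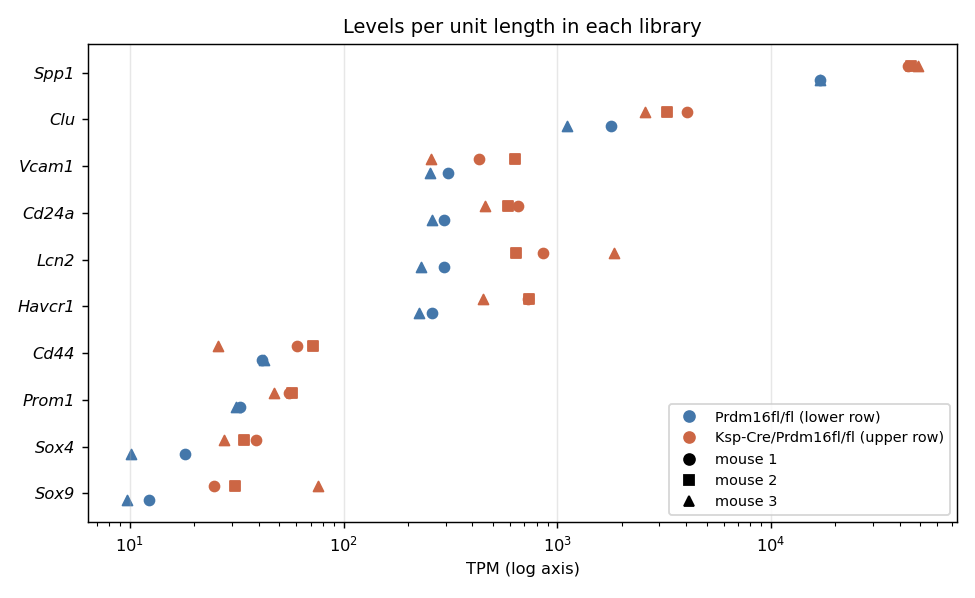
TPM of the 10 genes in each library on a log axis, ordered by their mean in the control mice (lower row of points for each gene) with the Ksp-Cre mice above (upper row). Spp1 lies at 16877 to 48710 TPM, Clu at 1115 to 4037 TPM and Sox9 at 9.73 to 75.9 TPM.

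Upstream sequences were available from RefSeq (GRCm38.p6) for 6 of the 10 genes, at 10 transcript starts, in coordinates that differ from those of the count tables. Clu, Sox9, Vcam1 and Cd24a had no entry. The 250 bases before each start were searched on both strands for AP-1 (TGANTCA, held by 6.75% of 32851 promoters), TEAD (GGAATG, 12.6%), SOX (ACAANG, 36.3%), a TATA box (TATAAA, 12.4%) and STAT (TTCNNNGAA, 7.02%). No match was found before the starts of Havcr1 and Lcn2, and Cd44 held a single SOX match. The 3 windows printed here, each before the outermost start of its gene, are shown because Spp1 is the most abundant member and because Sox4 and Prom1 are members of other roles with a TEAD or an AP-1 match. They lie at chr5:104434861-104435110 (plus strand), chr13:28953700-28953949 (minus strand) and chr5:44101737-44101986 (minus strand), are read 5′ to 3′ on the gene's strand, and carry the matches in capitals.
Spp1: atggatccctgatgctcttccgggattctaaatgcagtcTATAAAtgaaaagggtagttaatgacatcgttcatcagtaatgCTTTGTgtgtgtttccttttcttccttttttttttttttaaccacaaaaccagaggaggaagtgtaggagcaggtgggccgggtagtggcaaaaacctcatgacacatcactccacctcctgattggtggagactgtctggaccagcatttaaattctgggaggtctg
Sox4: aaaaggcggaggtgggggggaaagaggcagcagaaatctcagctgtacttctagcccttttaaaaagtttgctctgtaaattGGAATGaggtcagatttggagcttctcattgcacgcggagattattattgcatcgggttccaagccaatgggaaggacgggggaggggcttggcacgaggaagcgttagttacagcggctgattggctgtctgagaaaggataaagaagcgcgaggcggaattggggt
Prom1: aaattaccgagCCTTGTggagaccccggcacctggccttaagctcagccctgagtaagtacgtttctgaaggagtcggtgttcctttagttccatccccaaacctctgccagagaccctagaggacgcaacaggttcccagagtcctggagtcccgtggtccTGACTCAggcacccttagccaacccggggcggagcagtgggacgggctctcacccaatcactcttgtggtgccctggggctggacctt
In the Spp1 window the capitals mark TATAAA, 211 to 206 bases before the start, and, further on, a SOX match on the opposite strand. In the Sox4 window they mark a TEAD match, and in the Prom1 window a SOX match on the opposite strand and an AP-1 match. The second start of Prom1 also held an AP-1 match. These are matches of letters in a window, and binding was not measured.

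Among the secreted and shed injury markers, Spp1 was by far the most abundant. It encodes osteopontin, a secreted phosphoprotein that binds integrins and Cd44. The gene is placed on chromosome 5 between positions 104582977 and 104588919 (plus strand), with a merged exon length of 1658 bp. Gene positions are given as the deposited tables list them, in a genome build that the sources used here do not name for mouse. Its level was 12277 and 13442 CPM in control mice 1 and 3, and 27016, 28061 and 33774 CPM in Ksp-Cre mice 1, 2 and 3. The groups did not overlap, and mouse 3 held the highest value. By TPM it was the gene of rank 3 in both control libraries and of rank 1 in all 3 Ksp-Cre libraries. In the test across all genes Spp1 had a log2 fold change of 1.20 with a standard error of 0.24, and an adjusted p = 0.0741 by edgeR and an adjusted p = 2.8e-09 by DESeq2. Limma on log2(TPM + 1) also passed the threshold, with a log2 fold change of 1.44 and an adjusted p = 0.0431. Spp1 is the only member that limma called. Without mouse 3 its log2 fold change was 1.10, with an adjusted p = 0.0031 by edgeR.

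Havcr1 encodes a receptor through which injured proximal tubule cells take up apoptotic debris, and it is close to undetectable in healthy tubules. It is placed on chromosome 11 between positions 46630644 and 46670405 (plus strand). Its level was 283 and 273 CPM in control mice 1 and 3, and 683, 696 and 472 CPM in Ksp-Cre mice 1, 2 and 3. The 2 controls were close to each other, and all 3 Ksp-Cre mice lay above them, mouse 3 the least. Havcr1 differed by 1.15 on the log2 scale (standard error 0.21), and its adjusted p = 0.0633 by edgeR was the smallest of the 10. Without Ksp-Cre mouse 3 the difference was 1.31, with an adjusted p = 3.5e-04 by edgeR. Without Ksp-Cre mouse 1 or 2 it was 1.07 and 1.05, with an adjusted p = 0.16 and 0.188 by edgeR. Of its close relatives, Timd2, a neighbour on chromosome 11 that encodes a ferritin receptor of the same family, differed by 0.36 on the log2 scale (standard error 0.16; adjusted p = 0.302 by edgeR). Timd4, the phosphatidylserine receptor of macrophages, had 0 counts in both control libraries and at most 4 in the others.

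Lcn2 encodes a lipocalin that binds iron-carrying siderophores and is released into urine and blood by stressed tubules. It is placed on chromosome 2 between positions 32274649 and 32277751 (minus strand). Its level was 110 and 94.0 CPM in control mice 1 and 3, and 272, 204 and 658 CPM in Ksp-Cre mice 1, 2 and 3. The groups did not overlap, and mouse 3 was 2.79 times the geometric mean of mice 1 and 2. Lcn2 had the largest log2 fold change of the 10, at 1.89 (standard error 0.52), with an adjusted p = 0.138 by edgeR. Without mouse 3 the value was 1.23 and passed the threshold, with an adjusted p = 0.0018 by edgeR. Neutrophils also carry Lcn2. Of the 6 neutrophil markers, Ly6g, Ngp and Camp were at 0 to 0.40 CPM in every library. In edgeR 1 of the 3 that could be tested was higher at an unadjusted p under 0.05, beside 7.64% of all genes. The 6 summed to 3.30 and 5.80 CPM in control mice and to 5.66 to 12.5 CPM in Ksp-Cre mice. The part of neutrophils in the level of Lcn2 was not tested.

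Clu encodes clusterin, a secreted chaperone that binds misfolded proteins and cell debris. It is placed on chromosome 14 between positions 66205932 and 66218997 (plus strand). Its level was 1737 and 1203 CPM in control mice 1 and 3, and 3380, 2735 and 2415 CPM in Ksp-Cre mice 1, 2 and 3. The controls differed from each other more than for the other secreted markers, and the lowest Ksp-Cre mouse still lay above the higher control. On the log2 scale Clu differed by 0.95 (standard error 0.25; adjusted p = 0.122 by edgeR and adjusted p = 0.0034 by DESeq2). It was 0.71 without control mouse 3 and 1.24 without control mouse 1. Without Ksp-Cre mouse 3 it was 1.06, with an adjusted p = 0.0084 by edgeR.

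Sox9 and Sox4 encode transcription factors with an HMG box, both active in the developing nephron and both turned on again after injury. Sox9, on chromosome 11 between 112673036 and 112678583 (plus strand), stood at 22.2 and 19.4 CPM in control mice 1 and 3. In Ksp-Cre mice 1, 2 and 3 it stood at 38.3, 47.8 and 132 CPM. All 3 lay above both controls, and mouse 3 was 3.05 times the geometric mean of mice 1 and 2, a wider gap than for Lcn2. Sox9 differed by 1.80 on the log2 scale (standard error 0.57; adjusted p = 0.174 by edgeR) with all libraries and 1.05 (adjusted p = 0.0023 by edgeR) without mouse 3. Sox4, an intronless gene on chromosome 13 between 29132902 and 29137682 (minus strand), stood at 37.8 and 23.3 CPM in control mice 1 and 3. In Ksp-Cre mice it stood at 69.6, 61.2 and 55.2 CPM, above both controls but with mouse 3 the lowest. Sox4 differed by 1.02 on the same scale (standard error 0.23; adjusted p = 0.0938 by edgeR), and the value ranged from 0.71 without control mouse 3 to 1.41 without control mouse 1. Without Ksp-Cre mouse 3 it was 1.10, with an adjusted p = 0.0074 by edgeR. The Sox4 locus overlaps 2 predicted genes that held 0 to 13 counts in any library.

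The list of 20 close relatives of these proteins held 11 more Sox genes. Of the 20, 14 were tested, of which edgeR called 0, beside 0.104% of all genes as higher and 0.872% as lower. At an unadjusted p under 0.05 in edgeR there were also 0, beside 7.64% and 11.2%. DESeq2 called 0, beside 1.86% and 5.46%. The median log2 fold change of these 14 was 0.15. In 3 of them all Ksp-Cre mice lay above both controls, and in 1, Sox6, they lay below, beside 20.3% and 21.3% of all genes. The largest in size were Prom2 (-0.55, standard error 0.29), Sox11 (0.51, standard error 0.66) and Sox7 (0.45, standard error 0.29). Sox11, a close homologue of Sox4, stood at 3.64 and 3.73 CPM in control mice and at 9.37, 4.61 and 1.67 CPM in Ksp-Cre mice, so its groups overlapped.

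The surface proteins fell into a pair that lay above both controls in every Ksp-Cre mouse, Cd24a and Prom1, and a pair that did not, Vcam1 and Cd44. Cd24a encodes a small lipid-anchored sialoglycoprotein of immature epithelium, and it is placed on chromosome 10 between positions 43454433 and 43460261 (plus strand). Its level was 283 and 276 CPM in control mice 1 and 3, and 541, 482 and 423 CPM in Ksp-Cre mice 1, 2 and 3. Cd24a differed by 0.79 on the log2 scale (standard error 0.15; adjusted p = 0.0726 by edgeR and adjusted p = 2.8e-04 by DESeq2), with no overlap of the groups. Without mouse 3 the difference of Cd24a was 0.88, with an adjusted p = 0.0019 by edgeR. Prom1 encodes prominin 1, a protein of membrane protrusions that marks scattered tubular cells, and it is placed on chromosome 5 between positions 44150963 and 44260850 (minus strand). Its level was 127 and 135 CPM in control mice 1 and 3, and 184, 191 and 177 CPM in Ksp-Cre mice 1, 2 and 3. The difference of Prom1 was small but even between mice, at 0.49 on the log2 scale (standard error 0.11, the smallest of the 10; adjusted p = 0.103 by edgeR and adjusted p = 0.0096 by DESeq2). Without mouse 3 it was 0.52, with an adjusted p = 0.0085 by edgeR.

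Vcam1 encodes the cell adhesion molecule that binds the leukocyte integrin of Itga4 and Itgb1, and it is placed on chromosome 3 between positions 115903669 and 115923337 (minus strand). Its level was 457 and 415 CPM in control mice 1 and 3, and 544, 804 and 366 CPM in Ksp-Cre mice 1, 2 and 3. Mice 1 and 2 lay above both controls and mouse 3 below both. The difference of Vcam1 was 0.39 on the log2 scale (standard error 0.32; adjusted p = 0.553 by edgeR and adjusted p = 0.603 by DESeq2). Without mouse 3 it was 0.63, with an adjusted p = 0.0381 by edgeR, and without mouse 2 it was 0.064. Cd44, the receptor of hyaluronan and osteopontin, is placed on chromosome 2 between positions 102641486 and 102732014 (minus strand). Its level was 104 and 117 CPM in control mice 1 and 3, and 129, 154 and 62.0 CPM in Ksp-Cre mice 1, 2 and 3. The pattern was that of Vcam1, with mouse 3 at 0.442 times the geometric mean of mice 1 and 2. For Cd44 the log2 difference was 0.059 (standard error 0.36; adjusted p = 0.946 by edgeR) and ranged from -0.21 without mouse 2 to 0.36 without mouse 3 (adjusted p = 0.0639 by edgeR).

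**Figure D3:**
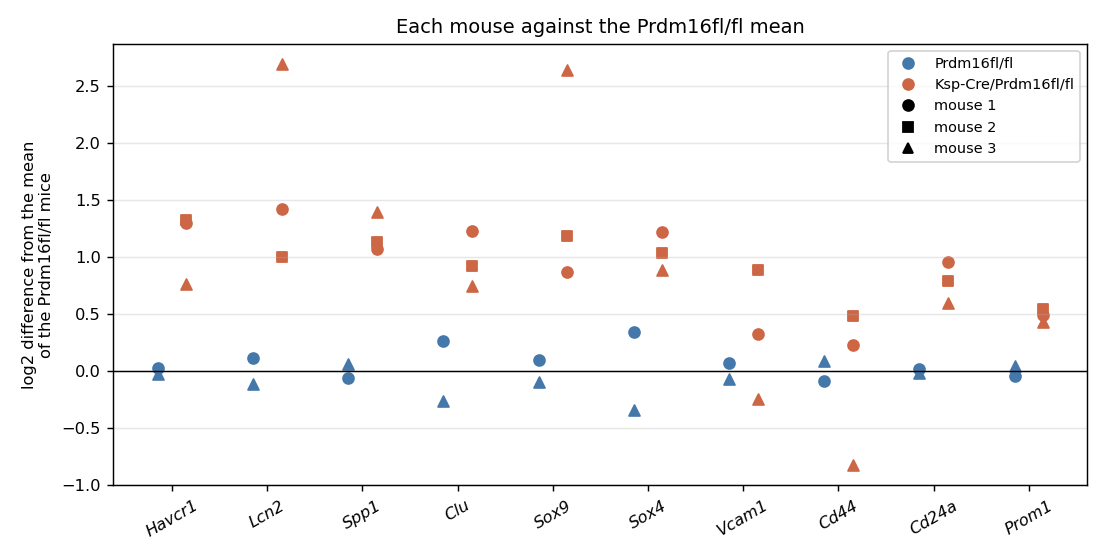
Log2 difference of each mouse from the mean of the control mice for the 10 genes, with the symbol giving the mouse number. Ksp-Cre mouse 3 lies highest for Lcn2 (2.69) and Sox9 (2.64) and below the controls for Vcam1 (-0.25) and Cd44 (-0.83).

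The median of the 10 log2 differences from the control mean was 1.01, 0.96 and 0.75 in Ksp-Cre mice 1, 2 and 3, beside 0.047 and -0.047 in the controls. The 2 control values mirror each other by construction, since the mean is that of these 2 mice, and are no separate reference for the spread. The median over all tested genes was within 0.025 of 0 in every library. Mice 1 and 2 had similar medians, and mouse 3 a lower median with a wider spread over the 10 genes. Mouse 3 was at least 2-fold away from the geometric mean of mice 1 and 2 for 3 of the 10 members, Lcn2, Sox9 and Cd44, as it was for 9.85% of the genes tested.

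Vcam1 and Cd44 are also made by endothelium and leukocytes, and Spp1 and Cd44 by macrophages. In whole tissue, fewer cells of a type and less RNA per cell cannot be told apart. The 6 macrophage markers summed to 320 and 412 CPM in control mice 1 and 3, against 516, 488 and 333 CPM in Ksp-Cre mice 1, 2 and 3. The 3 pan-leukocyte markers summed to 224 and 213 CPM in the controls and to 274, 278 and 185 CPM with Ksp-Cre. Both sums were lowest in mouse 3 among the Ksp-Cre mice, as Vcam1 and Cd44 were, although the macrophage sum of mouse 3 lay within the range of the controls. Of the 6 macrophage markers, Adgre1 (12.3 CPM) and Fcgr1 (7.26 CPM) lay below both controls in mouse 3, and Csf1r, Cd68, C1qa and Mrc1 lay between the controls. Of the 3 pan-leukocyte markers, Ptprc (53.9 CPM) and Coro1a (46.7 CPM) lay below both controls in mouse 3, and Laptm5 (84.8 CPM) above both. The 6 endothelial markers summed to 276 CPM in each control and to 258, 222 and 292 CPM with Ksp-Cre, so that sum was highest in mouse 3. edgeR and DESeq2 each called 0 of the macrophage, pan-leukocyte and endothelial markers at the adjusted threshold. Of all genes, edgeR called 0.104% as higher and 0.872% as lower, and DESeq2 1.86% and 5.46%. At an unadjusted p under 0.05 in edgeR, 1 pan-leukocyte marker was higher, beside 7.64% of all genes. In the same test 1 endothelial marker was lower, beside 11.2%. The part of these cells in the levels of Vcam1, Cd44 and Spp1 was not tested.

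Tubular segments were not level between the groups either. Of the 10 proximal tubule markers, among them Lrp2, 9 lay below both controls in all 3 Ksp-Cre mice, a separation seen for 21.3% of all genes, and edgeR called 2 of them, Slc22a8 and Acsm2, as lower, beside 0.872% of all genes, whereas DESeq2 called 6 as lower, beside 5.46%. Their summed level was 11306 and 11654 CPM in control mice 1 and 3 and 4492, 5254 and 4586 CPM in Ksp-Cre mice. Slc27a2, the marker that overlapped, gave 2480 CPM of the sum in mouse 3. Slc34a1 stood at 1041, 1039 and 483 CPM in Ksp-Cre mice 1, 2 and 3, whereas Slc22a6 and Acsm2 of mouse 3 lay between mice 1 and 2. The 4 general tubule epithelial markers summed to 1529 and 1510 CPM in the controls and to 1521, 1509 and 1234 CPM with Ksp-Cre. Cdh16, whose promoter drives the Cre, stood at 980 and 944 CPM in the controls and at 868, 890 and 575 CPM with Ksp-Cre. These 4 markers did not move together. Cdh16 lay below both controls in all 3 Ksp-Cre mice, beside 21.3% of all genes. Epcam and Cdh1 lay above both in all 3, beside 20.3%, and Pax8 overlapped. Urothelial markers summed to 0 to 3.52 CPM, so the defining genes of urothelium were at or near 0. Their part in the levels of the 10 genes was not tested. The erythroid sum was 6.61 and 10.7 CPM in control mice and 147, 146 and 39.4 CPM in Ksp-Cre mice.

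Receptors and binding partners of the 10 proteins gave a less even picture. Of 22 such genes 19 were tested, and edgeR called 0 at the adjusted threshold, beside 0.104% of all genes as higher and 0.872% as lower. At an unadjusted p under 0.05, 4 were higher (Itgb1, Itgb3, Msn and Lrp8) and 1 lower (Lrp2), beside 7.64% of all genes as higher and 11.2% as lower. DESeq2 called 3, Itgb1, Itgb3 and Lrp8, all as higher, beside 1.86% of all genes. Without Ksp-Cre mouse 3 edgeR called these 3 and Msn as higher and Lrp2 as lower, 5 in all, beside 7.82% of all genes as higher and 11% as lower in that fit. Itgb3, the partner of Itgav in an osteopontin receptor, stood at 6.67 and 5.17 CPM in control mice 1 and 3 and at 11.6, 11.1 and 16.4 CPM in Ksp-Cre mice 1, 2 and 3, without overlap. The log2 difference was 1.13 (standard error 0.26; adjusted p = 0.0993 by edgeR and adjusted p = 0.0071 by DESeq2). Itgav itself differed by 0.066 (standard error 0.29). Lrp8, a receptor of clusterin, had the largest difference of the list, at 1.60 (standard error 0.48). Its level was 3.83 ± 0.0703 CPM in the 2 controls and 11.6 ± 6.56 CPM (mean ± SD) in the 3 Ksp-Cre mice, where mouse 3 stood at 19.1 CPM, and without that mouse the difference was 1.04. Lrp2 (megalin), which takes up filtered Lcn2 and clusterin in the proximal tubule, stood at 927 and 854 CPM in control mice and at 533, 646 and 279 CPM in Ksp-Cre mice, a difference of -0.87 on the log2 scale (standard error 0.34; adjusted p = 0.245 by edgeR). Without mouse 3 it was -0.59, with an adjusted p = 0.0165 by edgeR. Of the hyaluronan synthases that make the ligand of Cd44, Has1 and Has2 were under 1 CPM in every library. Hyal1, a hyaluronidase, differed by 0.98 (standard error 0.52), with 42.8 CPM in mouse 3 and 11.1 to 16.1 CPM in the other libraries, and without mouse 3 the difference was 0.29.

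A further 26 genes reported in injured or failed-repair tubules were compared, of which 25 were tested. Of these 25, 22 had a log2 fold change above 0, beside 8857 of all 16394 genes tested. Their median was 0.61, beside 0.038 over all genes tested. edgeR called 1 of them, Dcdc2a, as higher, beside 0.104% of all genes, and DESeq2 called 9, all as higher, beside 1.86%. Dcdc2a encodes a doublecortin-domain protein of microtubules and cilia and is a marker of failed-repair proximal tubule cells. It stood at 79.5 and 79.0 CPM in control mice 1 and 3 and at 147, 153 and 131 CPM in Ksp-Cre mice 1, 2 and 3. Dcdc2a was higher by 0.86 on the log2 scale (standard error 0.12), with an adjusted p = 0.0454 by edgeR, close to the threshold. In the other fits that kept both controls the adjusted p ran from 3.1e-06 in DESeq2 to 0.201 in edgeR with the mouse number as a replicate block. The call was lost in 10 of the 15 other fits, among them scaling by library size or upper quartile. Also among them were the replicate block and the fits without Ksp-Cre mouse 1 or 2, all of which called 0 of all genes. The fits without a control mouse, also among the 10, keep 1 control and cannot decide the call. Timp1, an inhibitor of matrix proteases, had the largest difference, at 1.25 (standard error 0.34; adjusted p = 0.134 by edgeR), followed by Krt18, a keratin of simple epithelium, and Myc, a growth regulator, both at 1.13 (adjusted p = 0.0548 and 0.0505 by edgeR). In 11 of the 25 all 3 Ksp-Cre mice lay above both controls, beside 20.3% of all genes, and 11 were higher at an unadjusted p under 0.05, beside 7.64%. Without Ksp-Cre mouse 3, edgeR called 19 of the 25, beside 7.82% of all genes as higher in that fit.

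**Figure D4:**
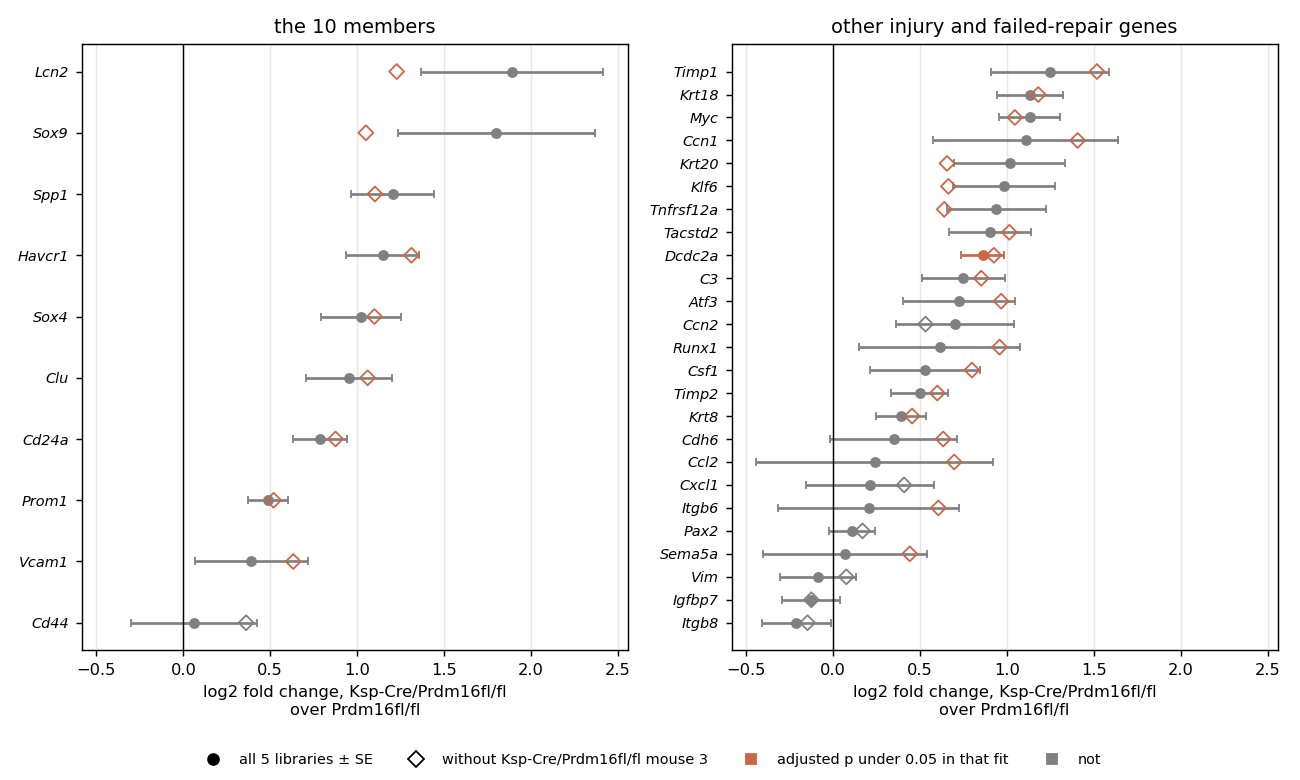
Log2 fold change between Ksp-Cre and control kidneys for the 10 genes (left) and for 25 other injury and failed-repair genes (right), with all 5 libraries (filled circles ± standard error) and without Ksp-Cre mouse 3 (open diamonds). Orange marks an edgeR adjusted p under 0.05 in that fit. With all libraries 0 of the 10 genes had it, beside 0.104% of all genes as higher. Without mouse 3, 9 had it, beside 7.82% of the genes tested in that fit as higher.

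Genes with the pattern of Vcam1 and Cd44 were looked for after the values were seen. In 6 of these 25 genes, Sema5a, Itgb6, Cdh6, Ccl2, Runx1 and Csf1, Ksp-Cre mice 1 and 2 lay above both controls and mouse 3 below both, as did 8.52% of all genes tested. Ccl2, a chemokine that draws monocytes, stood at 15.98 and 12.99 CPM in control mice and at 19.1, 27.8 and 4.20 CPM in Ksp-Cre mice 1, 2 and 3. Itgb6, an integrin chain that activates latent TGF-β, stood at 115 and 110 CPM in control mice and at 161, 181 and 47.4 CPM in Ksp-Cre mice. Genes with the pattern of Lcn2 and Sox9, above both controls in all 3 mice and highest in mouse 3, made up 11.2% of all genes tested and 4 of the 25, Krt20, Klf6, Myc and Tnfrsf12a. Krt20, a keratin of severely injured tubules, stood at 61.2 and 61.9 CPM in control mice and at 85.2, 108 and 180 CPM in Ksp-Cre mice 1, 2 and 3. Mouse 3 therefore combined the highest Lcn2, Sox9 and Krt20 of the 5 libraries with the lowest Vcam1, Cd44, Ccl2 and Itgb6.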

How the data were processed

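RNA of kidney cortex from 5 mice (2 Prdm16fl/fl UIRI and 3 Ksp-Cre/Prdm16fl/fl UIRI) was sequenced by the authors, who deposited for each mouse 1 table of whole-number read counts per gene with TPM and FPKM values. Per the labels, total RNA was extracted with Trizol and libraries were made with an NEBNext Ultra kit. The submitters' processing notes name CASAVA, featureCounts 2.0.1 and DESeq2 1.16.1, and name hg38, a human build, for these mouse samples. The aligner is not given in the sources used here. The deposited FPKM values were only used to check the tables, since both TPM and FPKM could be recomputed from the counts and the listed gene lengths.

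Counts were tested with edgeR 4.0.16 (R 4.3.3), using TMM normalization, its default filter on low counts (16394 of 35478 genes) and the quasi-likelihood test between the 2 groups, with Benjamini-Hochberg adjustment over all genes tested and a threshold of 0.05. CPM were computed with TMM library sizes, and values between genes were compared in TPM only. Differences of single mice were taken on log2(CPM + 0.5). Alternatives were DESeq2 1.42.0, other scalings and filters, limma 3.58.1 on log2(TPM + 1) and log2(TPM + 0.1), removal of a gene length trend, robust dispersion, the mouse number as a replicate block, and leaving out each mouse. The scripts were tested on simulated data. Mouse numbers 1 and 3 occur in both groups, and the labels do not say that a number marks a shared litter or day, so the fit had no block. The 10 genes and every gene list were chosen with earlier results of these data known. All members were named, and of each other list the genes past the adjusted threshold (up to 6), filled with the largest log2 fold changes to make 3, with relatives and partners where their member is described. Genes named for a pattern across single mice, and single marker genes, were chosen after their values were seen. Depth was 14939040 to 16425161 counts per library, and a gene with few counts, such as Timd4, cannot be compared at this depth. The kit and counting are not stated to use strand, so reads of overlapping genes cannot be told apart.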

Additional observations from a re-analysis of the deposited data

How the results depend on the processing

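In every fit with all 5 mice the number of members with an unadjusted p under 0.05 was 8. At the adjusted threshold edgeR called 0 members, beside 0.104% of all genes as higher, and DESeq2 called 8, beside 1.86%. Without a filter on low counts 2 passed (Havcr1 and Spp1), beside 63 of 25632 genes as higher. Limma called 1 at either pseudocount (Spp1), beside 20 of 15327. The fit without Ksp-Cre mouse 3 called 9, beside 7.82% of genes as higher. Those without Ksp-Cre mouse 1 or 2 called 0 members and 0 of all genes. The cause was not tested. The median log2 fold change of the members, 0.99, was 1.22 on log2(TPM + 1) and 1.25 on log2(TPM + 0.1), where the median of all genes was also shifted, to 0.23 and 0.25, and it was 0.15 over all genes with scaling by library size; leaving out 1 mouse gave 0.74 to 1.15 for the members. The log2 fold change of Cd44 was -0.30 with the replicate block and -0.0032 with the gene length trend removed, and ran from -0.21 to 0.36 when 1 mouse was left out, while that of Sox11 ran from -0.22 to 0.93.

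Of the 25 other injury genes, edgeR called 1, beside 0.104% of all genes as higher, and DESeq2 called 9, beside 1.86%. Without a filter 3 passed, beside 63 of 25632 genes as higher. With at least 10 counts in every library 2 passed, beside 21 of 14796. The number was 0 with scaling by library size or upper quartile, where 14 and 15 of all genes were called as higher. It was also 0 in limma at either pseudocount (20 of all genes as higher), with the length trend removed (4) and with the replicate block (0). Without Ksp-Cre mouse 3 it was 19, beside 7.82% of genes as higher. Without Ksp-Cre mouse 1 or 2 it was 0, as it was for all genes. For receptors and partners it was 3 with DESeq2, beside 1.86% of all genes as higher. Without Ksp-Cre mouse 3 it was 5, beside 7.82% of genes as higher and 11% as lower, and without Ksp-Cre mouse 1 or 2 it was 0. For close relatives it was 0 in every alternative that kept both controls. With the replicate block 0 genes in all passed the threshold and 8 members had an unadjusted p under 0.05. The check of pairing found r = 0.00102 for mouse number 1 and r = -0.022 for number 3 between the deviations of same-numbered mice from their group means. With 2 controls these deviations are equal in size and opposite in sign, so both values rest on the same control contrast. They cannot decide whether the numbers mark pairs. Fits without a control mouse keep 1 control, which is then assumed to vary like the other group.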

Other observations

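Beside the injury genes, markers of other nephron segments and of interstitial cells were read as summed levels. The 3 distal convoluted tubule markers summed to 1509 and 956 CPM in control mice 1 and 3, against 827, 581 and 201 CPM in Ksp-Cre mice 1, 2 and 3. Each of the 3 genes lay below both controls in all 3 mice, beside 21.3% of all genes. edgeR called 0 of them, beside 0.872% of all genes as lower, and DESeq2 called 0, beside 5.46%. In edgeR 1 was lower at an unadjusted p under 0.05, beside 11.2%. The 3 thick ascending limb markers summed to 2610 and 3579 CPM in the controls and to 2460, 2209 and 1170 CPM with Ksp-Cre. Of the 4 podocyte markers, which mark glomerular rather than tubular cells, edgeR called 1, Nphs1, as lower, beside 0.872% of all genes, and DESeq2 called 3 as lower, beside 5.46%, and their sum was 579 and 448 CPM in the controls and 300, 305 and 331 CPM with Ksp-Cre. The 6 fibroblast and pericyte markers summed to 247 and 348 CPM in the controls and to 519, 468 and 382 CPM with Ksp-Cre. edgeR called 0 of them, beside 0.104% of all genes as higher, and 3 were higher at an unadjusted p under 0.05, beside 7.64%. DESeq2 called 1 as higher, beside 1.86%. Among the 6 collecting duct markers edgeR called 0, beside 0.872% of all genes as lower, and DESeq2 called 2 as lower, beside 5.46%. Their sums were 430 and 383 CPM in the controls against 324, 185 and 282 CPM with Ksp-Cre.

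The 3 proliferation markers summed to 82.7 and 71.0 CPM in control mice, against 131, 101 and 61.6 CPM in Ksp-Cre mice 1, 2 and 3. In this sum mouse 3, with the most Sox9, lay below both controls. Its Mki67 (26.7 CPM) and Top2a (18.4 CPM) lay below both controls, whereas its Cdk1 (16.5 CPM) lay above both. edgeR called 0 of the proliferation markers, beside 0.104% of all genes as higher, and DESeq2 called 0, beside 1.86%. In edgeR 1 was higher at an unadjusted p under 0.05, beside 7.64%. The 4 lymphocyte markers found summed to 15.7 and 16.4 CPM in the controls and to 12.2, 20.9 and 7.20 CPM with Ksp-Cre. All 4 erythroid markers were higher in edgeR at an unadjusted p under 0.05, beside 7.64% of all genes. At the adjusted threshold edgeR called 0, beside 0.104% as higher, and DESeq2 called 4, beside 1.86%.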
